A study of Heterocephalus glaber with 215 samples.

Results

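The genes SOD1, SOD2, SOD3 and CAT encode the superoxide dismutases and catalase of the naked mole-rat (NMR), a rodent that lives in colonies where few animals reproduce. All 4 were found by symbol among the 16339 genes of the count table, each with 1 row. They were followed in 10 tissues of 24 animals, 6 in each of 4 groups. Female breeders (BF) and male breeders (BM) were animals set up in new pairs outside their colony of birth. Female non-breeders (NF) and male non-breeders (NM) came from the same litters and lived on in that colony. Effects of breeding and effects of the move therefore cannot be told apart. The study sampled breeding males soon after a litter was born, and breeding females only weeks later and without their mates, so a difference between breeders of both sexes cannot be told apart from one of sampling time. Mean ages were 3.517 ± 0.183 years in BF, 3.4 ± 0.6 in NF, 3.517 ± 0.571 in BM and 3.417 ± 0.564 in NM (SD, n = 6 each). Ovary came from females, testis from males, and both sexes gave adrenal, thyroid, pituitary, hypothalamus, cerebellum, kidney, heart and skin.

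Superoxide forms mainly where electrons leak from the respiratory chain and where oxidases are at work. Superoxide dismutases turn it into hydrogen peroxide and oxygen. SOD1 is the copper and zinc enzyme of the cytosol, SOD2 is the manganese enzyme of the mitochondrial matrix, and SOD3 is a secreted copper and zinc enzyme that binds to the matrix around cells. Catalase, the product of CAT, is a heme enzyme of peroxisomes that breaks hydrogen peroxide down to water and oxygen. Peroxiredoxins and glutathione peroxidases remove peroxide in the other compartments. In mammals generally, steroid-producing glands, kidney and heart are rich in mitochondria, and kidney tubules are rich in peroxisomes as well.

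Of the 215 libraries, 213 were used. The cerebellum library of BM_5982 and the ovary library of BF_1816 were left out, as the study did. Each group had 6 libraries, except 4 in cerebellum of BM and 5 in ovary of BF. Library totals ranged from 9553515 to 20099804 counts, with a median of 14.31 Mreads. Levels are given as CPM, the counts of a gene per Mread of its library, after scaling by TMM, the trimmed mean of M-values. CPM are not divided by transcript length, so levels are compared between tissues and groups and not between genes. Markers of the labelled tissue were higher in every library of that tissue than in any other library for heart, skin, kidney, pituitary, thyroid, adrenal and ovary. The lists for cerebellum, hypothalamus and testis were higher in 8, 32 and 5 libraries of other tissues than in the lowest library of their own. KIF4A, a kinesin, separated the thyroids by sex, with 0.142 to 3.08 CPM in 11 females and 19.05 to 30.04 CPM in 11 males, but the library labelled NF_3605 was at 19.72 CPM and the library labelled NM_3295 at 0.277 CPM. Pituitary libraries NF_2969 and NF_3605 also stood apart, with 406700 and 475200 CPM of summed pituitary hormone markers, against 98760 to 312200 in the other libraries of the tissue. For members, values without these libraries are given where they bear on a result.

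SOD1 had its highest level in the steroid-producing organs. It averaged 980 ± 437 CPM in testis (SD, n = 12), 756 ± 107 in adrenal (n = 24) and 714 ± 316 in ovary (n = 11), and these means, and those of ovary and kidney, differed by less than the larger SD. Kidney followed with 534 ± 108 CPM, thyroid with 418 ± 68.1 and heart with 391 ± 68.6 (n = 24 each), and thyroid and heart differed by less than their spread. Hypothalamus had 260 ± 27.9 CPM, pituitary 191 ± 24.7, skin 167 ± 38.9 and cerebellum 136 ± 24.8. Among the last 3 tissues neighbours differed by less than the larger SD. The mean in testis was 7.22-fold that in cerebellum. In the gonads the spread was wide, with 514 to 1821 CPM over the testis libraries and 408 to 1533 over the ovary libraries.

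SOD2 was highest in kidney and heart. Kidney averaged 400 ± 129 CPM, heart 268 ± 64.9 and adrenal 138 ± 20.3 (SD, n = 24 each), and each of these differed from the next by more than the larger SD. From testis at 62.8 ± 24.3 CPM (n = 12) down to skin at 35.2 ± 33.2 (n = 24), every neighbour in the order differed by less than the spread, through cerebellum (57.3 ± 5.99, n = 22), hypothalamus (54.1 ± 7.73), ovary (53.9 ± 13.9, n = 11), pituitary (51.1 ± 17.5) and thyroid (47.1 ± 31.9). SOD2 was uneven among the libraries of some tissues. The coefficient of variation was 94.4% in skin and 67.7% in thyroid, against 10.4% in cerebellum and 14.3% in hypothalamus. Heart ranged from 188 to 352 CPM apart from the library of NF_0525, which had 33.8 CPM. Kidney of BF_4772 had 131 CPM and kidney of NM_0713 had 129 CPM, while the other kidneys had 232 to 635.

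SOD3 was highest in testis and had almost no reads in the brain. Testis averaged 63.1 ± 27.2 CPM (SD, n = 12), ovary 26.8 ± 23.3 (n = 11) and heart 16.6 ± 4.81 (n = 24). The ovary mean joins groups that lay far apart, as described below for status. It was 43.5 CPM in NF, but 6.86 CPM in BF, below the means of heart, kidney and skin. Kidney had 9.44 ± 3.93 CPM, skin 8.79 ± 4.41, thyroid 5.74 ± 2.32 and adrenal 5.17 ± 1.74, and neighbours among these 4 tissues differed by less than their spread. Pituitary had 1.79 ± 0.881 CPM and hypothalamus 0.272 ± 0.124 (n = 24 each), where 103 reads were counted in all. In cerebellum the mean was 0.0992 ± 0.0891 CPM (n = 22) from 33 reads in all, and 5 libraries had no read, which allows up to 0.206 to 0.272 CPM by 3 reads of the unscaled library. SOD3 was not tested for status or sex in cerebellum and hypothalamus, because it did not pass the filter on low counts there.

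CAT was a kidney transcript above all. Kidney averaged 971 ± 245 CPM (SD, n = 24), which is 12.5-fold the level in hypothalamus and more than the larger SD above the next tissue. Adrenal had 320 ± 38.1 CPM, heart 281 ± 57.4, thyroid 259 ± 61.0 and skin 197 ± 63.4, each differing from the next by less than the larger SD. Testis (121 ± 42.8, n = 12) and pituitary (108 ± 17.3) came next and overlapped in the same sense. Ovary had 86.0 ± 17.0 CPM (n = 11), cerebellum 82.2 ± 6.00 (n = 22) and hypothalamus 77.8 ± 5.47 (n = 24), and these 3 could not be ordered beyond their spread. Among the brain libraries the coefficient of variation of CAT was the smallest of any member, at 7.04% in hypothalamus and 7.3% in cerebellum. The low kidney libraries of SOD2 were low in CAT as well, with 339 CPM in BF_4772 and 475 CPM in NM_0713 against 705 to 1361 in the other 22. The plot of all libraries shows these levels by tissue and group.

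**Figure D1:**
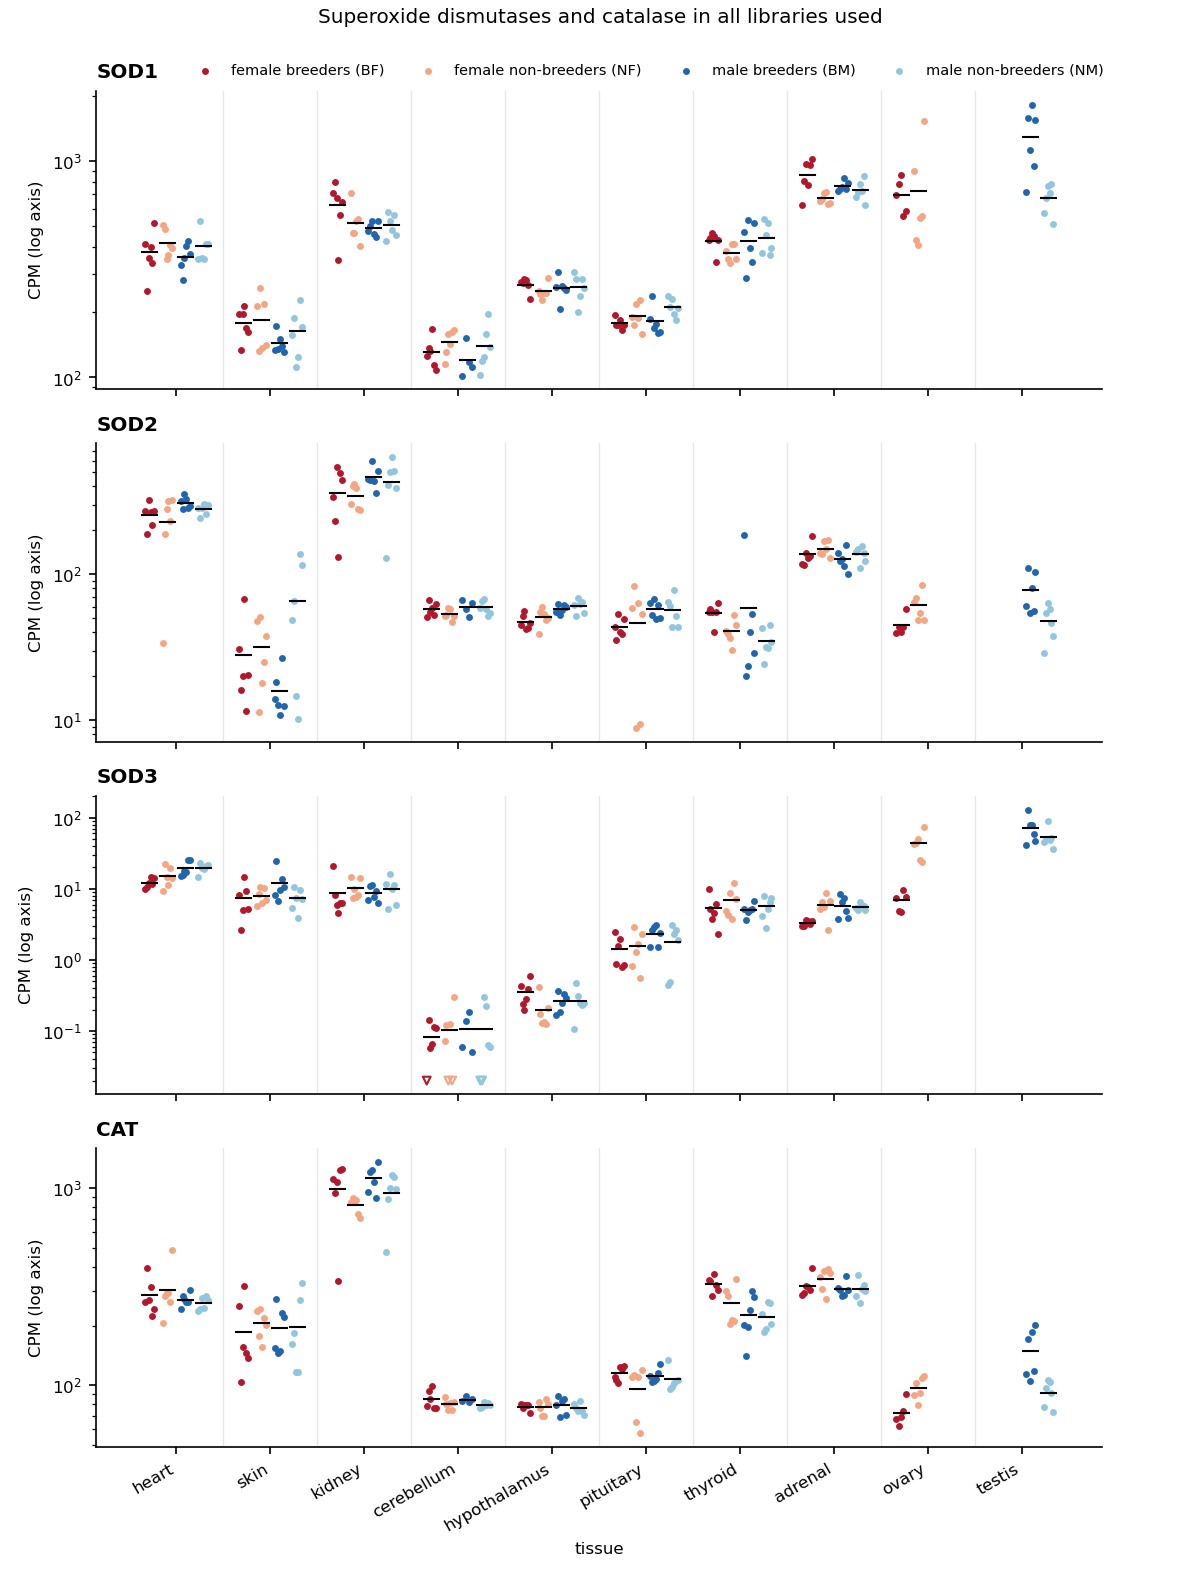
CPM of SOD1, SOD2, SOD3 and CAT (log axes, a panel per gene) in 213 libraries, by tissue and by group in the order BF, NF, BM, NM. Points are libraries, horizontal bars are group means, and open triangles mark the 5 cerebellum libraries without a SOD3 read; kidney stands highest for CAT (mean 971 CPM) and SOD2 (400 CPM), and testis for SOD1 (980 CPM) and SOD3 (63.1 CPM).

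Tissue carried most of the spread of each member. Of the sum of squares of log2 CPM over the 213 libraries, 90.4% lay between tissues for SOD1, 80.7% for SOD2, 93% for SOD3 and 92.8% for CAT. Groups within a tissue held 2.33%, 4.16%, 2.49% and 1.6% in the same order of genes. The share left within groups was largest for SOD2, at 15.2%. In the F-test over 9 tissue terms all 4 members were called at an adjusted p below 0.01, but so were all 15847 genes tested (100%), and the F of SOD2 (106) was below the median over all genes (142). Without the libraries that stood apart, left out after seeing the data, the F of SOD2 was 189 and the median 153. The F of CAT (361) was exceeded by 15.6% of genes, that of SOD3 (242) by 28.7% and that of SOD1 (195) by 36.9%.

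The 4 tissue profiles were not alike. Across the 10 tissue means of log2 CPM, Pearson's r was 0.729 between SOD1 and SOD3 and 0.724 between SOD2 and CAT. The other 4 pairs had r from 0.224 (SOD2 and SOD3) to 0.417 (SOD1 and SOD2). Among 14359 genes, the profile of SOD1 was most like those of HMGN4 (r = 0.96), RSPRY1 (0.943) and LAMC3 (0.935). SOD2 was followed most closely by PCCA (0.956), MUT (0.945) and FAM195A (0.945). PCCA encodes a subunit of propionyl-CoA carboxylase and MUT encodes methylmalonyl-CoA mutase, both enzymes of mitochondrial propionate breakdown. The nearest profiles to SOD3 were those of SAP30L (0.977), ERBB2IP (0.964) and TDRD3 (0.962), and those to CAT were ST3GAL6 (0.976), ST6GALNAC1 (0.96) and CRLS1 (0.945). CRLS1 encodes cardiolipin synthase of mitochondria, and both ST genes encode sialyltransferases. These r values come from 10 points that share animals and scaling, and they are given as a description.

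Status and sex were compared in 34 pairs of groups, 18 by status within a sex and 16 by sex within a status. A member could be tested in 128 of the 136 gene and comparison pairs. In 1 of them it was called at an adjusted p below 0.01 (edgeR's quasi-likelihood test with Benjamini-Hochberg adjustment), namely SOD3 in ovary. Over all genes, 0.11% of the tests were called in the status comparisons together and 0.0558% in the sex comparisons together. At an unadjusted p below 0.05 there were 22 of 128 member tests (17.2%), against 10.9% over all genes. Values of the groups did not overlap in 4 of the 136 pairs (2.94%), against 1.03% of all tests. Comparisons of a tissue share libraries, and tissues share animals, so these counts are not made of independent tests. The plot of log2 fold changes gives all tests with their errors.

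**Figure D2:**
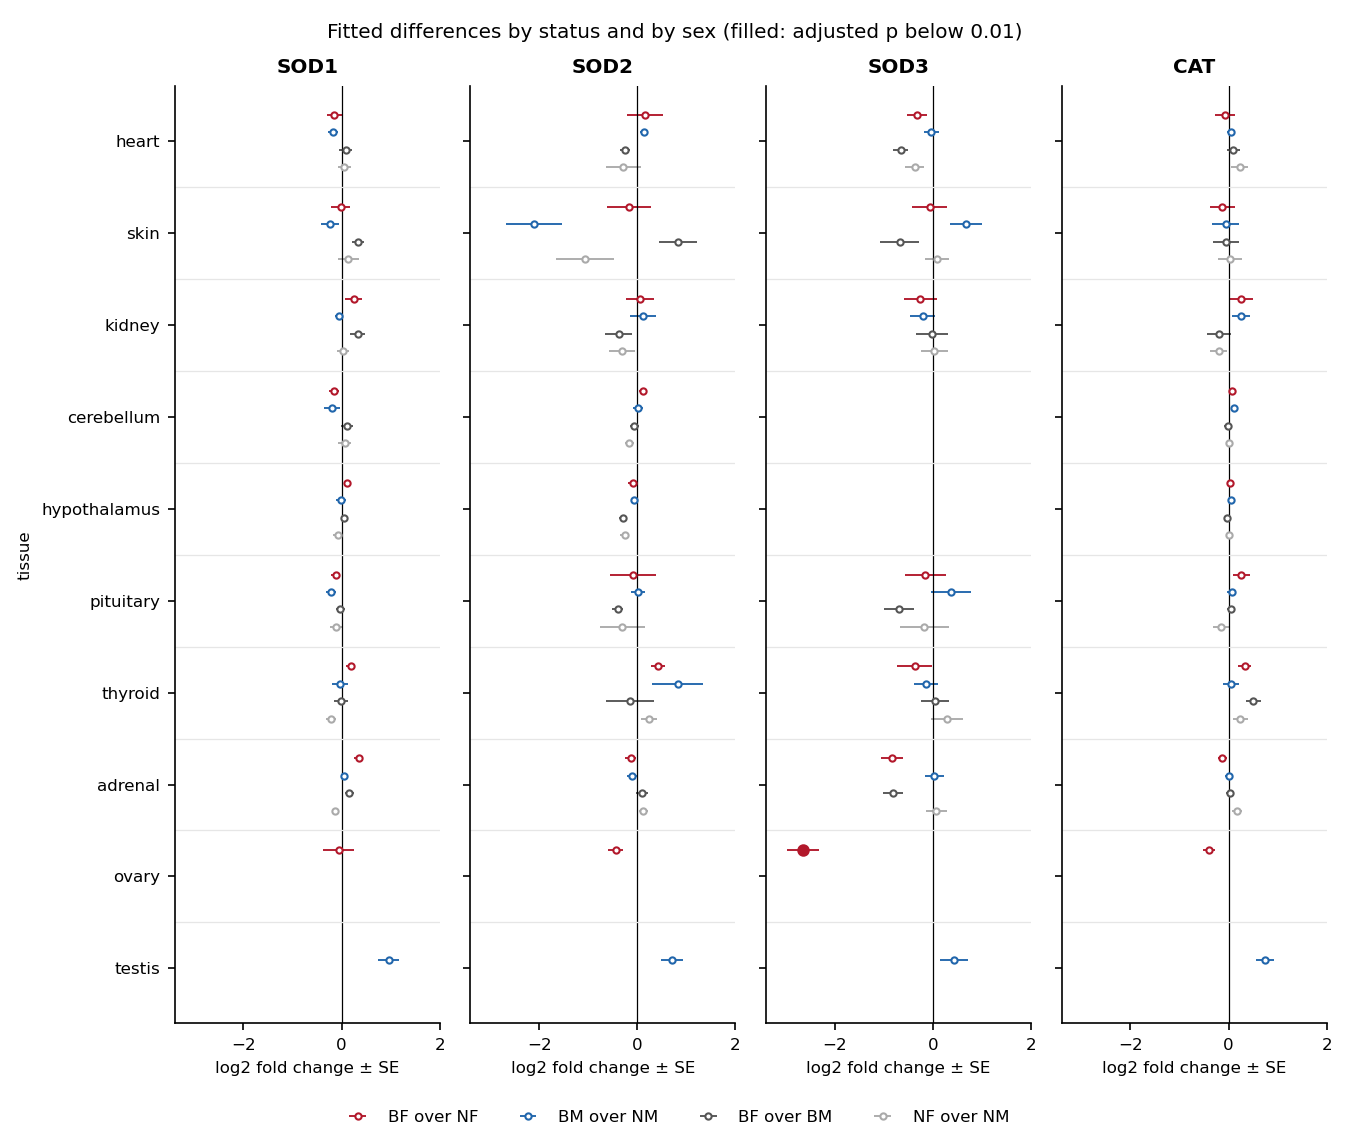
Log2 fold change ± SE of each member by tissue for BF over NF, BM over NM, BF over BM and NF over NM, from edgeR's quasi-likelihood fits. A filled point marks an adjusted p below 0.01; only SOD3 in ovary of BF over NF is filled, at -2.65, and SOD3 has no point in cerebellum and hypothalamus, where it was not tested.

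In ovary, SOD3, the secreted dismutase, fell in breeding females by 2.65 on the log2 scale. It had 7.53, 4.80, 4.73, 9.65 and 7.62 CPM in the 5 BF ovaries, from 73 to 193 reads each. The 6 NF ovaries had 42.7, 43.7, 50.2, 25.7, 23.8 and 74.9 CPM, from 357 to 1429 reads. The groups did not overlap, and the highest BF ovary was below the lowest NF ovary. The mean was 6.86 ± 2.10 CPM in BF (SD, n = 5) and 43.5 ± 18.6 in NF (n = 6). The log2 fold change was -2.65 ± 0.32 (SE), with an adjusted p of 0.00203 by edgeR's quasi-likelihood test, in a comparison in which 61 of 13717 genes (0.445%) were called. Of all genes tested, 1.14% lay lower in every BF ovary than in any NF ovary. Leaving out a female in turn gave log2 fold changes between -2.79 and -2.42, and the adjusted p was 0.01001 without BF_1090 and 0.01037 without BF_4772, just above the threshold. Over the same fits the number of called genes ran from 17 without NF_2411 to 115 without BF_6841.

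The other members differed less in ovary and none was called. CAT averaged 72.7 ± 10.9 CPM in BF and 97.1 ± 12.6 in NF ovaries, a log2 fold change of -0.41 ± 0.12 (adjusted p = 0.114). The BF ovaries ran from 62.1 to 90.6 CPM and the NF ovaries from 79.5 to 112, so that BF_6841 alone reached into the NF range. SOD2 averaged 44.9 ± 7.44 CPM in BF and 61.4 ± 13.9 in NF ovaries, with a log2 fold change of -0.44 ± 0.16 (adjusted p = 0.183). SOD1 had 555, 588, 698, 782 and 856 CPM in BF and 408 to 1533 CPM in NF ovaries, with its highest value in NF_4060 and means of 696 ± 127 CPM in BF and 729 ± 431 in NF. All 4 members thus had a lower mean in BF, but only for SOD3 was the difference past the threshold. For SOD1 the direction depended on single libraries. Its log2 fold change was -0.06 ± 0.32 with all ovaries, 0.316 ± 0.205 without NF_4060 and 0.03 ± 0.347 without BF_6382. The median of SOD1 was 698 CPM in BF and 551 CPM in NF.

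Around the members, 1 gene of the 5 lists was called in ovary. PRDX2, a cytosolic peroxiredoxin that removes hydrogen peroxide, was called and had 186 ± 28.1 CPM in BF and 107 ± 12.2 in NF ovaries (log2 0.80 ± 0.11, adjusted p = 0.00361 by edgeR). Leaving out a female in turn gave log2 fold changes between 0.74 and 0.88 and adjusted p from 0.00157 to 0.0154, above the threshold without BF_1090, BF_4121, BF_4772 or NF_2411. PRDX2 was the only gene called among the 32 tested of 34 other removers of peroxide and radicals, of which 3 were higher and 3 lower at an unadjusted p below 0.05. Over all genes the shares at that level were 8.44% higher and 7.44% lower. None of the 18 partners and regulators of the members, 18 tested sources of superoxide and hydrogen peroxide, 34 peroxisomal genes or 34 genes of the respiratory chain and citrate cycle was called. The medians of these 4 lists ranged from -0.105 to 0.041 on the log2 scale, beside -0.02 over all genes.

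Ovaries of the 2 groups also differed in their markers. Summed granulosa cell markers (6 of 6 in the table) were 618 to 2019 CPM in BF and 302 to 453 in NF. Smooth muscle markers (7 of 8) were 663 to 3648 CPM in BF and 412 to 1372 in NF. Steroid cell markers (5 of 6) were 2307 to 14660 CPM in BF and 6597 to 27600 in NF, and oocyte markers (6 of 6) were 218 to 297 CPM in BF and 224 to 500 in NF. No marker of these lists was at 0 in every ovary, although CYP19A1, the aromatase, was at 0 in some. INHA, INHBA and CYP19A1 of the granulosa cell list were themselves reported by the study as higher in ovaries of breeders. The sum of that list thus carries part of the status difference and does not count cells. The part of these differences in the level of SOD3 was not tested. In whole tissue, fewer cells that express a gene and less RNA per cell cannot be told apart.

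In testis, SOD1, SOD2 and CAT had higher means in breeding males, and none was called. SOD1 had 722, 1583, 1119, 1821, 945 and 1538 CPM in the BM testes and 578, 675, 767, 712, 782 and 514 CPM in the NM testes. Of the 6 BM testes, 5 lay above every NM testis, and BM_1147 lay within the NM range. The means were 1288 ± 424 CPM in BM and 671 ± 106 in NM (SD, n = 6 each), with a log2 fold change of 0.96 ± 0.21 and an adjusted p of 0.0681 by edgeR. CAT averaged 150 ± 42.5 CPM in BM and 91.6 ± 13.7 in NM testes (log2 0.73 ± 0.18, adjusted p = 0.0681). SOD2 averaged 77.5 ± 24.7 CPM in BM and 48.0 ± 12.9 in NM testes (log2 0.71 ± 0.23, adjusted p = 0.0737). SOD3 averaged 72.3 ± 32.7 CPM in BM and 54.0 ± 18.9 in NM testes, and its highest values were 131 CPM in BM_1215 and 90.9 CPM in NM_3295.

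**Figure D3:**
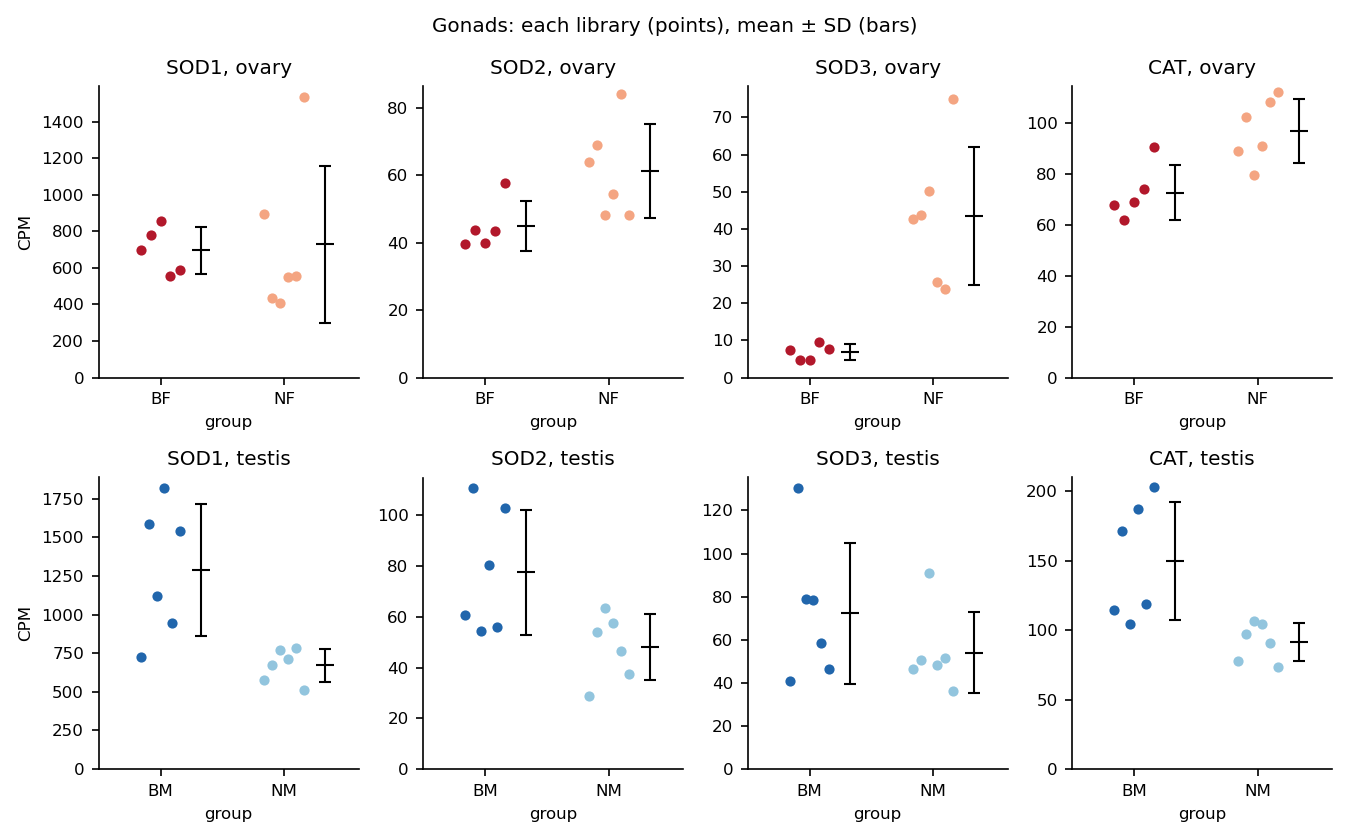
CPM of the 4 members in each ovary (upper row, BF and NF) and each testis (lower row, BM and NM), with points for libraries in the order of the animal numbers and bars for mean ± SD (n = 5 for BF ovaries, otherwise n = 6). SOD3 in ovary is the panel in which the groups stand apart (4.73 to 9.65 CPM in BF, 23.8 to 74.9 in NF); in testis, BM reach higher for SOD1, SOD2 and CAT and overlap NM.

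In testis no gene at all was called by edgeR (0% of 14421), although 5283 genes had an unadjusted p below 0.05, 18.6% of all genes higher and 18% lower in BM. DESeq2, the tool of the study, called 378 genes, among them SOD1 (adjusted p = 0.00301) and CAT (0.00982). Under the other settings with all 12 testes and no marker covariate the adjusted p ranged from 0.0476 to 0.0945 for SOD1 and from 0.0477 to 0.0945 for CAT. Leaving out a male in turn gave 0.025 (without BM_5982) to 0.155 (without BM_6656) for SOD1 and 0.0256 to 0.155 without the same animals for CAT. At an unadjusted p below 0.05, 19 of 32 other removers of peroxide and radicals were higher in BM and none was lower, with a median log2 fold change of 0.33. The respiratory chain and citrate cycle had 30 of 34 genes higher and none lower, with a median of 0.37, and peroxisomal genes had 12 of 34 higher and 4 lower, with a median of 0.20. The median over all genes was 0.02. Partners and regulators had 6 of 18 higher and none lower, and sources of superoxide and hydrogen peroxide had 6 of 21 higher and 3 lower.

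Steroid cell markers differed between the same testes. Their sum (5 of 6 genes in the table, none at 0) was 27010 to 65970 CPM in BM and 13470 to 28480 in NM. Male germ cell markers (6 of 8 in the table, none at 0) were 87.9 to 302 CPM in BM and 280 to 445 in NM. The 3 BM testes with the highest steroid cell markers, BM_1215, BM_3274 and BM_6656 at 53280, 57590 and 65970 CPM, had the highest SOD1 (1538 to 1821 CPM), CAT (172 to 204 CPM) and SOD2 (80.4 to 111 CPM) of all 12. The same 3 had the lowest germ cell markers, at 87.9 to 108 CPM. With the log2 of the steroid cell markers as a covariate, a setting chosen after seeing the data, the log2 fold change was 0.22 ± 0.19 for SOD1, -0.16 ± 0.13 for SOD2, 0.03 ± 0.11 for CAT and -0.10 ± 0.38 for SOD3. STAR, CYP11A1 and LHCGR of this list were themselves reported by the study as higher in testes of breeders. The covariate thus carries part of the status difference, so smaller fold changes under it do not show what lay behind them. In whole tissue, more cells that express a gene and more RNA per cell cannot be told apart. BM_6656, with the highest sum, had 46.5 CPM of SOD3, which lay within the 36.5 to 90.9 CPM of the NM testes.

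**Figure D4:**
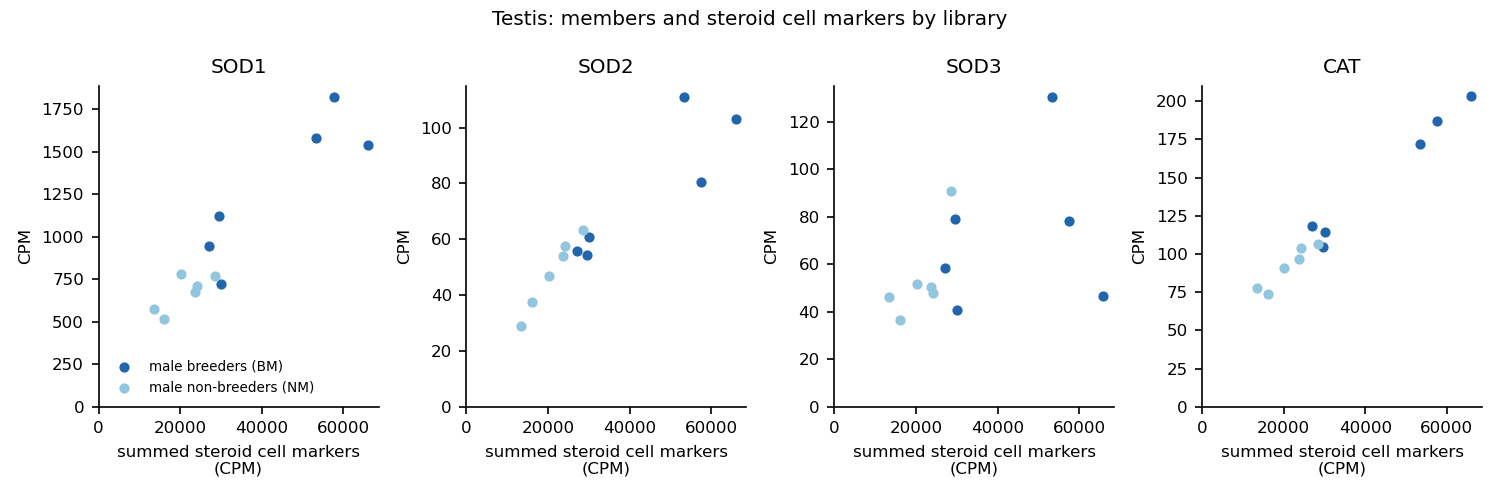
CPM of each member in the 12 testes against the summed steroid cell markers of the same library (CPM), with dark points for BM and light points for NM. For SOD1, SOD2 and CAT the 3 BM testes with 53280 to 65970 CPM of markers lie highest, and for SOD3 the testis with the highest markers has 46.5 CPM.

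In skin, SOD2 was the member that differed most between breeding and non-breeding males, without a call. It had 13.98, 18.3, 12.8, 10.8, 26.8 and 12.4 CPM in the BM skins, against 48.3, 65.1, 14.7, 10.3, 138 and 116 CPM in the NM skins. The highest BM value lay below 4 of the 6 NM values, NM_3295 at 14.7 CPM lay within the BM range, and NM_4925 at 10.3 CPM lay below the lowest BM skin. The means were 15.9 ± 5.96 CPM in BM and 65.3 ± 52.3 in NM, with a log2 fold change of -2.10 ± 0.56 and an adjusted p of 0.0951 by edgeR, which called no gene in this comparison (0% of 13401, with 2495 genes at an unadjusted p below 0.05). DESeq2 called 413 genes, SOD2 among them (adjusted p = 0.00362), whereas the other settings with all 12 skins and no marker covariate gave adjusted p from 0.0545 to 0.262. The study itself reported SOD2 as lower in skin of breeding males, by a smaller fold change than the one given here. Leaving out a male in turn gave 0.0386 (without NM_3295) to 0.22 (without NM_6206). Of 34 genes of the respiratory chain and citrate cycle, 32 were lower in BM at an unadjusted p below 0.05 and none was higher, with a median log2 fold change of -0.97. Over all genes, 9.19% were lower and 9.42% higher, with a median of 0.00.

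Skeletal muscle markers ran with SOD2 in many of the skin libraries, but not in all. Their sum (9 of 11 genes in the table, none at 0 in any skin) was 32.4 to 4435 CPM in BM, with a median of 51.6, and 41.4 to 33890 CPM in NM, with a median of 11440. NM_6074 and NM_6206, with the highest SOD2, had the highest sums, 33890 and 24680 CPM, and NM_4925, with the lowest SOD2 of all 24 skins, had 41.4 CPM. Female skins were uneven too, with 91 to 19210 CPM of markers in BF and 50.2 to 11280 in NF, and their SOD2 averaged 27.8 ± 20.6 CPM in BF and 31.9 ± 16.3 in NF. In males the log2 fold change of SOD2 was -1.17 ± 0.47 (adjusted p = 0.549) without NM_6074 and NM_6206, and -0.24 ± 0.49 (adjusted p = 0.967) with the log2 of the markers as a covariate. Both settings were chosen after seeing the data. The median of the markers itself differed between BM and NM, so smaller fold changes under these settings do not show what lay behind them. The part of muscle in the level of SOD2 was not tested. SOD1, SOD3 and CAT in skin of males had log2 fold changes of which none was called, and SOD3 averaged 12.2 ± 6.44 CPM in BM and 7.41 ± 2.52 in NM.

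**Figure D5:**
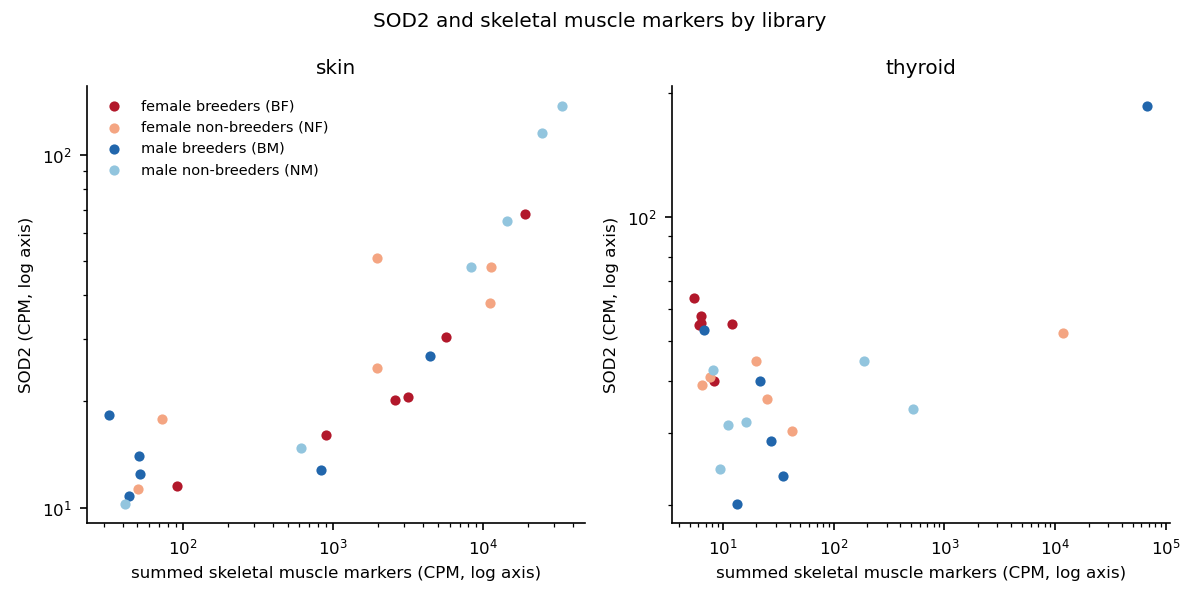
SOD2 (CPM, log axis) against the summed skeletal muscle markers of the same library (CPM, log axis) in 24 skins and 24 thyroids, coloured by group. The 6 skins with 11140 to 33890 CPM of markers have 38.0 to 138 CPM of SOD2, and in thyroid BM_1147 stands alone at 67640 CPM of markers and 186 CPM of SOD2.

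In thyroid, 202 genes (1.57%) were called between BF and NF, and no member was among them. The number of called genes rested on single animals. Without BF_6841 or NF_0525 it was 0, without BF_1090, BF_4121, BF_1816 or NF_3439 it was 1 to 16, without NF_3605, BF_6382 or NF_2969 it was 70 to 86, and without BF_4772, NF_4060 or NF_2411 it was 251 to 395. SOD2 averaged 54.5 ± 7.81 CPM in BF and 40.6 ± 7.54 in NF (log2 0.43 ± 0.14, adjusted p = 0.0604), and CAT averaged 326 ± 29.0 CPM in BF and 261 ± 58.3 in NF (log2 0.33 ± 0.13, adjusted p = 0.119). Without the library labelled NF_3605, the log2 fold change was 0.52 ± 0.13 for SOD2 (adjusted p = 0.0338) and 0.28 ± 0.14 for CAT (adjusted p = 0.218), in a fit that called 70 genes. Among other removers of peroxide and radicals, 9 of 33 tested were higher in BF at an unadjusted p below 0.05 and none was lower, with a median of 0.19, beside 14.1% of all genes higher. Without NF_3605 the list had 9 higher and 1 lower, with a median of 0.18. Of the peroxisomal genes, PEX16 and PEX10, both needed for the assembly of peroxisomes, were called and were lower in BF (log2 -0.55 ± 0.09 and -0.51 ± 0.10, adjusted p = 0.00484 and 0.00911). PEX16 had an adjusted p of 0.0042 to 0.0172 over the fits that left out a female and was called in 4 of the 12. PEX10 had 0.00473 to 0.0296 and was called in 3. Without NF_3605 neither was called (0.0117 for PEX16 and 0.019 for PEX10). Thyroid follicle markers (5 of 6 genes in the table, none at 0) summed to 189700 to 331700 CPM in BF and 131000 to 236600 in NF, and to 77090 to 239600 CPM in BM and 117500 to 199900 in NM. The library labelled NF_3605 had 11820 CPM of skeletal muscle markers, against 6.42 to 41.7 in the other NF thyroids. The part of these markers in the thyroid values was not tested.

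Between breeders of the 2 sexes, thyroid CAT averaged 326 ± 29.0 CPM in BF and 228 ± 59.6 in BM (log2 0.51 ± 0.15, adjusted p = 0.0543), with 283 to 366 CPM in BF and 141 to 302 in BM. The direction for SOD2 rested on 1 library. In BM it averaged 58.7 ± 63.7 CPM, and BM_1147 had 186 CPM where the other 5 had 20.2 to 53.3. That library had 67640 CPM of skeletal muscle markers, against 6.68 to 35.0 in the other 5 BM and 5.497 to 12 in BF, and its part in the level of SOD2 was not tested beyond leaving the library out. The log2 fold change of SOD2 in BF over BM was -0.15 ± 0.50 with it and 0.72 ± 0.22 without it (adjusted p = 0.0545). For BM over NM it was 0.82 ± 0.53 with that library and -0.07 ± 0.24 without it, and 0.79 ± 0.59 without the library labelled NM_3295.

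In adrenal, SOD3 was lowest in breeding females. The 6 BF adrenals had 3.03 to 3.59 CPM (median 3.34), from 35 to 72 reads. BM adrenals had 3.71 to 8.38 CPM (median 5.68), NF adrenals 2.60 to 8.72 (median 6.10) and NM adrenals 5.05 to 6.59 (median 5.55). All BF values were below all BM values, as were those of 0.973% of all genes, and among NF only NF_3605, at 2.60 CPM, was lower than BF. The log2 fold change was -0.81 ± 0.20 in BF over BM, with an adjusted p of 0.0515, in a comparison with 56 called genes (0.429%). DESeq2 called it (adjusted p = 0.00777), and the other settings with all 12 adrenals gave adjusted p from 0.0307 to 0.0729. The 56 genes are those of edgeR. With DESeq2 the study listed many more genes for this comparison at the same threshold, so the DESeq2 call stands in a larger called set. Leaving out a breeder in turn gave 0.0272 (without BM_1147) to 0.102 (without BM_1400), while the number of called genes ran from 3 without BM_1400 or BM_3274 to 117 without BF_6841. In BF over NF it was -0.84 ± 0.23, with an adjusted p of 0.14. These 2 comparisons share the BF libraries and are not independent. SOD1 averaged 858 ± 148 CPM in BF and 671 ± 37.3 in NF adrenals (log2 0.35 ± 0.096, adjusted p = 0.152), and 5 of 6 BF adrenals were above every NF adrenal.

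The sets of related genes in adrenal of breeders stayed mostly short of the threshold. Of the respiratory chain and citrate cycle, 15 of 34 genes were higher in BF than in BM at an unadjusted p below 0.05 and none was lower, with a median of 0.14 and all 34 fold changes positive. Over all genes, 11% were higher and 10.6% lower. Non-breeders had nearly the same difference, with 14 of 34 genes higher in NF than in NM, none lower and a median of 0.14. In that comparison 7.33% of all genes were higher and 8.31% lower. AOX1, an aldehyde oxidase that yields superoxide and hydrogen peroxide, was called and lower (63.5 ± 9.73 CPM in BF, 107 ± 18.9 in BM, adjusted p = 0.00986). Of the 12 fits that left out a breeder it was called in 1, that without BF_6841, with adjusted p from 0.00802 to 0.0288 over all of them. Summed adrenal cortex markers (6 of 6 genes in the table) were 20780 to 24550 CPM in BF, 17350 to 21590 in BM and 17890 to 24810 in NF.

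In heart, SOD3 was lower in breeding females than in breeding males without overlap and without a call, in a comparison that called 5 of 12021 genes. The BF hearts had 10.1 to 14.7 CPM (median 11.9) and the BM hearts 15.3 to 25.8 CPM (median 17.6). The log2 fold change was -0.66 ± 0.15 with an adjusted p of 0.42, and 0.2% of all genes lay lower in every BF heart than in any BM heart. In non-breeders SOD3 averaged 15.2 ± 4.95 CPM in NF and 19.7 ± 2.97 in NM hearts, with overlap. SOD2 in heart averaged 256 ± 46.4 CPM in BF, 229 ± 108 in NF, 308 ± 27.8 in BM and 278 ± 23.8 in NM, where the NF mean includes the library of NF_0525 at 33.8 CPM. That library had heart muscle markers of 13230 CPM, within the 9686 to 23220 CPM of the other hearts, but its smooth muscle markers were 4693 CPM, against 8003 to 13880 in the others. Its endothelium markers were 3288 CPM, against 1661 to 2165 in the others. Its SOD1 was 505 CPM and its CAT 207 CPM, and the part of the markers in its SOD2 was not tested.

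In the brain and pituitary no member was called, in comparisons that called from 0 to 14 genes each. SOD2 in hypothalamus averaged 47.3 ± 5.64 CPM in BF and 58.1 ± 3.86 in BM (log2 -0.29 ± 0.08, adjusted p = 0.415), and 50.8 ± 7.05 CPM in NF and 60.5 ± 6.47 in NM (log2 -0.26 ± 0.10, adjusted p = 0.969). In pituitary it averaged 43.5 ± 6.87 CPM in BF and 57.6 ± 7.82 in BM (log2 -0.40 ± 0.11, adjusted p = 0.188). The NF pituitaries included 8.83 CPM in NF_2969 and 9.38 CPM in NF_3605, while the other 4 had 53.3 to 82.7. Without this pair the log2 fold change of SOD2 in BF over NF was -0.57 ± 0.14 (adjusted p = 0.113), against -0.09 ± 0.46 with it. In the pituitary of breeders, MAOB, a monoamine oxidase that yields hydrogen peroxide, was called, as were 14 of 13804 genes in all. It had 5.87 ± 2.11 CPM in BF and 20.8 ± 4.69 in BM (adjusted p = 0.00202 by edgeR). MAOB stayed called in each of the 12 fits that left out a breeder (adjusted p from 0.00136 to 0.00968). In NF it had 16.6 ± 4.47 CPM, and BF over NF gave a log2 fold change of -1.51 ± 0.26 without a call (adjusted p = 0.105). In cerebellum the BM values of CAT (82.4 to 88.7 CPM, n = 4) lay above those of NM (76.9 to 81.9) by a log2 fold change of only 0.10 ± 0.06 (adjusted p = 0.958). Over the 34 comparisons together 1.03% of all tests had no overlap, and a group of 4 libraries separates more easily than a larger one.

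In kidney no member was called, and 2 libraries stood apart. Hardly any gene was called there at all. The counts were 0 of 13336 in BF over NF, 0 of 13256 in BM over NM, 5 of 13294 in BF over BM and 4 of 13339 in NF over NM. CAT averaged 995 ± 341 CPM in BF and 821 ± 77.8 in NF, where BF_4772 had 339 CPM and the other 5 BF kidneys had 949 to 1256. Without BF_4772 the log2 fold change of CAT in BF over NF was 0.44 ± 0.10 (adjusted p = 0.0644), and that of SOD1 in BF over BM was 0.44 ± 0.08 (adjusted p = 0.0393). With it, SOD1 averaged 623 ± 155 CPM in BF and 489 ± 35.9 in BM (adjusted p = 0.31). Without NM_0713, CAT in NF over NM had a log2 fold change of -0.34 ± 0.09 (adjusted p = 0.191) and SOD2 of -0.49 ± 0.15 (adjusted p = 0.202). These settings were chosen after the low libraries had been seen. Kidney markers were 28760 CPM in BF_4772 and 21000 CPM in NM_0713, within the 18600 to 41930 CPM of the tissue. Fibroblast markers were 603 CPM in NM_0713, against 181 to 569 in the other kidneys, among them 376 in BF_4772. The part of cell content in the low values was not tested.

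Whether status acted alike in females and males was tested as an interaction in 8 tissues. No member was called, and no gene was called in any of these fits by edgeR (0%), where the unadjusted p was below 0.05 in 8031 tests, while 32 were called by DESeq2. The lowest adjusted p of a member was 0.199, for SOD2 in skin at 1.99 ± 0.76 on the log2 scale, with SOD3 in adrenal at -0.88 ± 0.30 (adjusted p = 0.572). The male status effect in testis minus that in skin was 2.72 ± 0.62 for SOD2 (adjusted p = 0.0254), 1.13 ± 0.28 for SOD1 (adjusted p = 0.0324), 0.71 ± 0.34 for CAT and -0.30 ± 0.44 for SOD3, and no gene was called there either (0% of 15006, with 3298 at an unadjusted p below 0.05). Animals of a group were also compared over their 8 shared tissues, and no member was called (adjusted p from 0.179 for SOD3 to 0.906 for SOD2), while 10.1% of all genes were. Without the thyroid libraries labelled NF_3605 and NM_3295 the adjusted p of SOD3 was 0.0761.

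Over all 34 comparisons, the 146 genes of the 5 lists around the members gave 4645 tests, of which 1 was called higher and 4 lower. These were the 5 already named, PRDX2 in ovary, PEX16 and PEX10 in thyroid, AOX1 in adrenal and MAOB in pituitary. Over all genes, 0.11% of the status tests and 0.0558% of the sex tests were called. Beside those shares, neither the calls nor their absence is read as a result about the lists. No partner or regulator of the members, among them the copper chaperone CCS and the regulators NFE2L2 and KEAP1, was called in any comparison. NFE2L2 came near the threshold in thyroid, with 279 ± 25.4 CPM in BF and 210 ± 23.8 in NF (log2 0.41 ± 0.09, adjusted p = 0.0156 by edgeR).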

How the data were processed

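Polyadenylated RNA was sequenced single-end from an unstranded kit. Reads were aligned by the authors with STAR 2.4.1d to a published NMR assembly and counted with HTSeq, and reads that mapped to several places were dropped. The deposited values are the authors' counts of reads per gene symbol, not normalized, and all 215 library columns matched a sample title. Without strand, reads from antisense partners are not separable. No pair of libraries within a group (535 pairs) was identical or differed by less than sampling noise (lowest chi-square per degree of freedom 6.53).

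Each comparison had its own fit of its 2 groups in edgeR 4.0.16 under R 4.3.3, with filterByExpr, TMM and robust quasi-likelihood F-tests. P-values were adjusted by Benjamini-Hochberg over all genes tested, and a gene is called below 0.01. Standard errors are the log2 fold change divided by the root of F. CPM were scaled by TMM over all 213 libraries at once. Log2 CPM used a prior count of 2. Alternatives were DESeq2 1.42.0, voom in limma 3.58.1, RLE factors, no filter, all groups of a tissue in 1 fit, age, and libraries left out. Leaving out each animal for the called genes of the lists and for SOD3 in adrenal of breeders was chosen after seeing the data. Functions were tested on simulated data.

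All members were named in every tissue, with the 3 genes of highest r among those reaching a tissue mean of 5 CPM, and up to 4 called genes of each list in a comparison described. NFE2L2, KEAP1 and CCS were named after the values were seen. The members and lists were chosen with earlier results of these data known. Groups and animals come from the labels, and p-values treat animals as independent, although litters were shared. Tissues come from the same animals, which pairs testis and skin. Between them, the departures of a male from the means of its group correlated at r from -0.097 to 0.156. Counting limits cover counting error only, since PCR copies are not told apart.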

Additional observations from a re-analysis of the deposited data

Results flagged for a closer look

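In each of 144 sets of a member in a group of 4 to 6 libraries, the highest or lowest library was checked against the gap that chance exceeds in about 1 in 20 sets, and 10 sets (6.94%) had such a library. SOD2 was low in heart of NF_0525, at 33.8 CPM against 188 to 323 in the other 5 NF hearts. In kidney of NM_0713, SOD2 (129 CPM against 389 to 635) and CAT (475 CPM against 878 to 1173) were both low, and in kidney of BF_4772 CAT was low (339 CPM against 949 to 1256). In thyroid, SOD1 was low in BF_6382 (343 CPM against 431 to 466) and SOD2 in BF_4772 (40.1 CPM against 54.8 to 63.8). SOD1 was low in hypothalamus of BF_6841 (230 CPM against 267 to 284). The remaining 3 were high, namely SOD2 in ovary of BF_6841 (57.8 CPM against 39.8 to 43.8), CAT in pituitary of NM_0713 (135 CPM against 96.4 to 107) and CAT in adrenal of BF_6841 (393 CPM against 286 to 319). The cause of these values was not tested. No member had a status effect that differed between the sexes past the threshold.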

How the results depend on the processing

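The status comparisons gave 1 called member and 4 with DESeq2, which added SOD2 in skin and SOD1 and CAT in testis. The sex comparisons gave 0 and, with DESeq2, 1 (SOD3 in adrenal of BF over BM). Under voom, RLE factors, no filter, all groups of a tissue in 1 fit, age as a covariate and the libraries left out or kept in, these counts stayed at 1 and 0. For SOD3 in ovary, the log2 fold change ranged from -2.79 to -2.42 over the fits that left out a female, and the call was lost without BF_1090 or BF_4772. Of 139 other values followed for 21 member and comparison pairs, 130 kept direction and side of the threshold, 4 passed it (those of DESeq2) and 5 turned. The turned ones were SOD2 in pituitary of BF over NF (0.31 with voom), in testis (-0.16 with steroid cell markers), in thyroid of BF over BM (0.37 with voom, 0.72 without BM_1147) and in thyroid of BM over NM (-0.068 without BM_1147). The cause was not tested. With the animal as a replicate block, the testis minus skin effect was 2.33 for SOD2 and 1.04 for SOD1 and 0 members were called as without it, while all 4 stayed called between tissues. Without TMM scaling, 10 of 40 tissue levels moved by over 1 SD, 3 of them in hypothalamus and 4 in heart, and SOD1 then ranked higher in hypothalamus (314 CPM) than in heart (235 CPM). By Spearman's rho in place of Pearson's r, 1 of the 3 nearest genes stayed for SOD1 and 0 for the other members. SOD3 had 33 reads in all in cerebellum and 103 in hypothalamus, and was not tested there.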
